A study of Mus musculus with 4 samples.

Results

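The 8 genes described here encode receptors for the constant (Fc) part of antibodies, the adaptor chains through which such receptors signal, a kinase that acts after them, and a transcription factor of the cells that carry them. They are Fcgr1, Fcgr2b, Fcgr3, Fcgr4, Fcer1g, Tyrobp, Syk and Spi1, taken by gene symbol from a table of 50593 genes, in which each of the 8 has 1 entry. RNA was sequenced from the sciatic nerve of mice of strain 129S1/SvImJ at 6 months of age. Both groups carried a heterozygous deletion of Hsf1, the heat shock factor 1 gene. The HSF V30M mice carried in addition a transgene for human transthyretin (TTR) with the V30M mutation on a background null for the mouse Ttr gene, and the HSF WT mice carried no such transgene. The labels list 2 samples per group, and the methods give n = 4 for sequencing and do not say if this holds for each group. The promoter of the transgene is not given in the sources used here.

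The table holds a single FPKM value (fragments per kilobase of transcript, scaled to depth) for each gene and group and no value for a mouse. No spread between mice can therefore be set beside any difference below, and no test between the groups could be made. In place of that spread, counting error is given. The low values of genes with a single transcript were whole multiples of what 1 fragment is worth, which was read for each library of a group. With these worths, the FPKM of a gene stands for a range of fragments, from its shortest transcript in the shallower library to its longest in the deeper one. The 95% exact intervals of FPKM ratios given below were computed from these fragment numbers and cover counting error only, not differences between animals. The libraries were 1.35-fold apart in depth in HSF WT and 1.18-fold apart in HSF V30M.

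The labels could not be checked with the targeted gene. Mouse Ttr, null in HSF V30M by design, had an FPKM of 6.10 in nerves labelled HSF V30M. It was listed at 0 in those labelled HSF WT, a direction that the null background alone would not give. Reads of the human transgene, which only HSF V30M mice carry, and reads of the mouse gene cannot be told apart in these values. Hsf1, heterozygous in both, had 7.94 and 14.95. The groups are therefore named by their labels throughout, and every direction rests on those labels. The tissue was checked with Schwann cell genes, of which all 10 listed had a mean FPKM of at least 1, and S100b, a calcium-binding protein of Schwann cells, stood at 328 in nerves labelled HSF V30M and 200.98 in those labelled HSF WT. In whole nerve, fewer cells of a type and less RNA per cell cannot be told apart.

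Antibodies of class G bound to their targets engage the Fc gamma receptors of macrophages and other white blood cells. The activating receptors have no kinase of their own. They pair with Fcer1g, a short chain that bears an immunoreceptor tyrosine-based activation motif (ITAM), a pair of tyrosines spaced so that Src family kinases phosphorylate them and Syk then docks on both. Fcgr2b is the inhibitory receptor and carries in its own tail a single tyrosine motif (ITIM) that recruits the phosphatase encoded by Inpp5d. Tyrobp, also called DAP12, is an ITAM adaptor for receptors such as Trem2. Spi1 encodes PU.1, which macrophages need for their development and which drives many of these genes. In peripheral nerve, resident macrophages and those that enter after injury carry this machinery.

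The coding sequence of these motifs is shown first, since it separates the activating adaptors from the inhibitory receptor. The sequences were read from GENCODE transcripts of the GRCm38 build, in coding direction, with the tyrosine codons in capitals.
Fcer1g ITAM: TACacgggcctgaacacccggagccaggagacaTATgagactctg
Tyrobp ITAM: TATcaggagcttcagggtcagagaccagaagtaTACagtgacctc
Fcgr2b ITIM: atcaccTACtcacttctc
The Fcer1g motif covers codons 65 to 79 of 86 and crosses from exon 4 to exon 5 of 5, at chr1:171229889-171230072 on the minus strand, intron included. The Tyrobp motif covers codons 92 to 106 of 114 and also crosses from exon 4 to exon 5 of 5, at chr7:30415670-30417382 on the plus strand, intron included. Both motifs are 45 bases long. The Fcgr2b motif lies in exon 8 of 8, codons 317 to 322 of 340, at chr1:170961071-170961088 on the minus strand. Of the principal transcripts of the 8 genes, 2 hold the full ITAM pattern, those of Fcer1g and Tyrobp. The single tyrosine pattern of the ITIM also occurs in the coding sequence of Fcgr1, Fcgr4, Fcer1g and Tyrobp, and it is shown for Fcgr2b because it is the known inhibitory motif there.

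In both groups the levels followed the same order, with the adaptors highest, the inhibitory receptor and Fcgr3 next, Syk and Spi1 below them, and Fcgr1 and Fcgr4 lowest. FPKM values are per length, so these levels can be set beside each other. Tyrobp had an FPKM of 52.5 in nerves labelled HSF V30M and 59.4 in those labelled HSF WT, above 90.3% and 91.5% of genes whose mean FPKM reached 1. Fcgr4 had 0.43 and 0.764, and its mean is below 1. The members thus spanned levels from near the limit of detection to those of abundant transcripts.

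**Figure D1:**
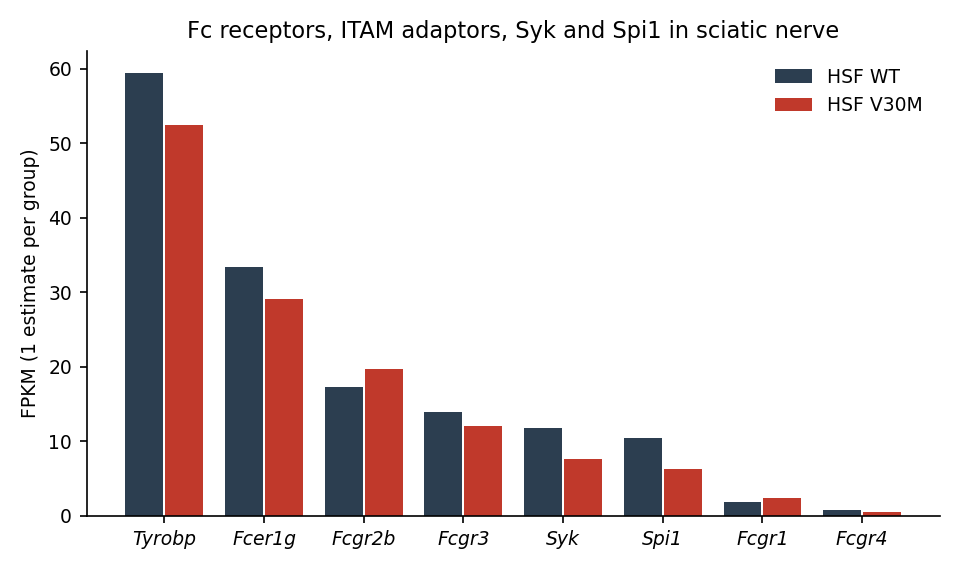
FPKM (vertical axis, from 0) of the 8 genes (horizontal axis) in the groups labelled HSF WT and HSF V30M. Each bar is the single estimate of a group, without an error bar because no value per mouse was given. Tyrobp and Fcer1g stand highest in both groups, and only Fcgr2b and Fcgr1 have the higher bar in nerves labelled HSF V30M.

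Differences between the groups were expressed as log2 of HSF V30M over HSF WT after adding 1 to each FPKM, a scale that understates the change of low genes. Of the 7 members whose mean FPKM reached 1, 5 were below 0 and 2 above, with a median of -0.19. Across the 15620 genes with that mean, the median was 0.00, and the middle of the distribution between its quartiles ran from -0.22 to 0.23. Spi1 was past a fold of 1.5 towards lower, and no member was past it towards higher. Of all genes, 8.44% were past it towards lower and 8.22% towards higher. Without the added 1, both Syk and Spi1 were past the fold towards lower, beside 9.88% of 15121 genes, and no member was past it towards higher, beside 10.1%. Counts of 1 and 2 of 7 genes are too few to set apart from that background.

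**Figure D2:**
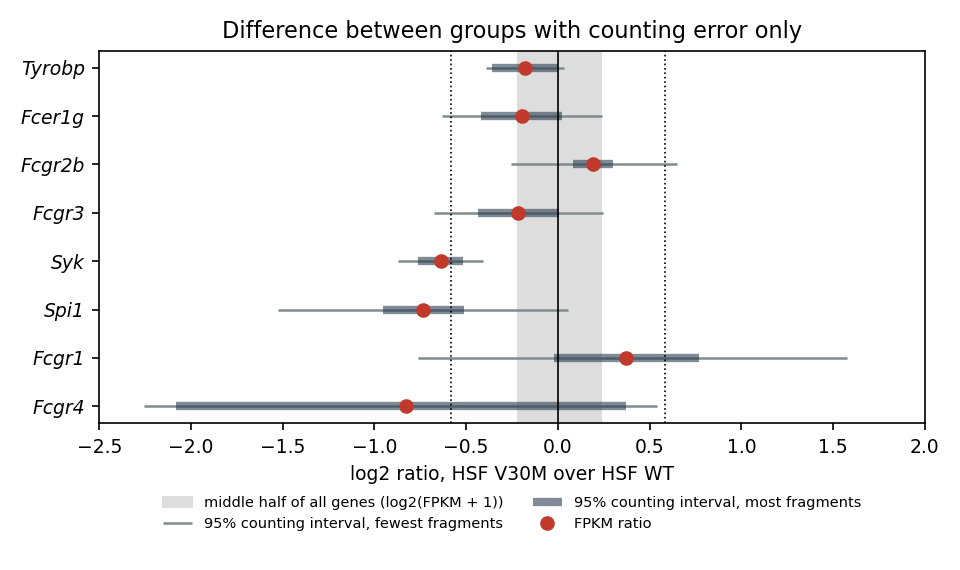
Log2 ratio of FPKM, HSF V30M over HSF WT (horizontal axis, without an added value), for the 8 genes. Points are the ratios, thin lines the 95% counting interval from the fewest fragments and thick lines that from the most, the grey band holds all genes between their quartiles on the FPKM + 1 scale, and dotted lines mark a fold of 1.5. Syk is the 1 gene whose thin and thick lines both lie below 0.

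Among the activating receptors, Fcgr3, the low affinity receptor for class G antibodies, was by far the most abundant. Its FPKM was 11.99 in nerves labelled HSF V30M, standing for 90 to 351 fragments, and 13.9 in those labelled HSF WT, standing for 75 to 332. The log2 ratio was -0.20, and the interval of the FPKM ratio from the fewest fragments ran from 0.626 to 1.19, which includes 1. A difference in Fcgr3 was thus not detectable beyond counting error.

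Fcgr1, the high affinity receptor, lies at chr3:96282909-96293969 on the minus strand, apart from the other receptors. It had an FPKM of 2.34 in nerves labelled HSF V30M and 1.81 in those labelled HSF WT, or 20 to 143 fragments against 11 to 90. The log2 ratio of 0.25 was the highest of the members with a mean of at least 1. The interval from 0.590 to 2.98 included 1, so the higher value is not distinguished from counting error.

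Fcgr4, the activating receptor of intermediate affinity, had 0.43 and 0.764, or 10 to 12 fragments in nerves labelled HSF V30M and 12 to 17 in those labelled HSF WT. Both values were above the FPKM of 0.131 and 0.184 that 3 fragments would give, so the gene was detected in each group. Without an added value the HSF WT level was 1.78 times the HSF V30M level, and on the FPKM + 1 scale the log2 ratio was -0.30. With an interval from 0.210 to 1.46, no difference was detectable at this depth. An snRNA gene, Gm26110, lies inside Fcgr4 on the same strand, with an FPKM of 27.0 and 22.7, and how its reads were kept apart is not known.

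Fcgr2b, the inhibitory receptor, differed from Fcgr3 in direction. It had an FPKM of 19.7 in nerves labelled HSF V30M, or 112 to 1679 fragments, and 17.2 in those labelled HSF WT, or 70 to 1196. The log2 ratio was 0.18, within the quartiles of all genes. The interval included 1 when the fewest fragments were taken, from 0.839 to 1.57, and excluded it when the most were taken, from 1.06 to 1.23. The summed FPKM of the 3 activating receptors was 14.8 in nerves labelled HSF V30M and 16.5 in those labelled HSF WT, which is 0.750 and 0.958 times that of Fcgr2b. For Fcgr3 alone this ratio to Fcgr2b was 0.609 and 0.809. The balance of activating to inhibitory transcript was 1.28-fold lower in nerves labelled HSF V30M, and the widest counting interval of each of the 4 receptors includes 1.

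The ratio of Fcgr3 to Fcgr2b needs care, because these genes share long identical stretches. Their coding sequences were 87.5% identical over 782 aligned bases, whereas every other pair of the 4 receptors lay between 67.8% and 69.9%. Of the 1347 bases of the principal Fcgr3 transcript, 313 (23.2%) lay in stretches of at least 50 bases that Fcgr2b holds without a mismatch, and 242 (17.97%) in stretches of at least 100. Seen from the longer Fcgr2b transcript the share was 8.83%. Fcgr4 and Fcgr3 shared at most 14 bases in a row. The longest stretch in common to Fcgr3 and Fcgr2b, printed here because a read within it cannot be given to either gene by its sequence, is 129 bases of coding sequence.
Fcgr3 and Fcgr2b: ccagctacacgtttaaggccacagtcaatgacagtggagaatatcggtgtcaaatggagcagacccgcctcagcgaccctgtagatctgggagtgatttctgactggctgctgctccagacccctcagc
It covers coding bases 263 to 391 of Fcgr3 in exons 3 and 4 of 5, at chr1:171054167-171057792 on the minus strand, and lies in Fcgr2b at chr1:170966674-170968081, introns included. The sum of both genes depends less on how such reads were divided. It was 31.7 in nerves labelled HSF V30M and 31.2 in those labelled HSF WT, 1.02-fold apart. The split between both genes is uncertain, and whether it moved their opposite directions was not tested.

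**Figure D3:**
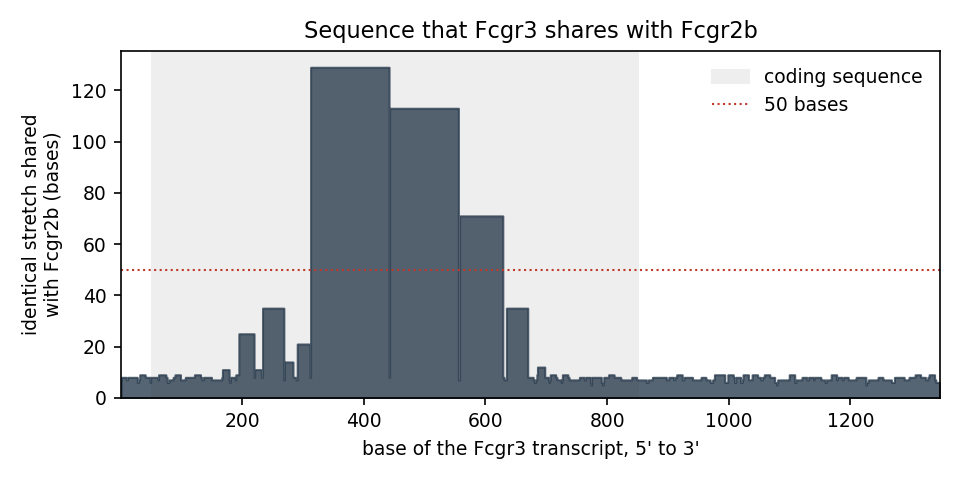
Length in bases of the identical stretch shared with Fcgr2b (vertical axis) at each base of the principal Fcgr3 transcript (horizontal axis, 5′ to 3′), with the coding sequence in grey and a dotted line at 50 bases. The tall blocks lie in the middle of the coding sequence and reach 129 bases, and the last part of the transcript holds no long stretch.

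Fcgr2b, Fcgr4, Fcgr3 and Fcer1g lie in that order within 275.7 kb of chromosome 1, at chr1:170958617-170976547, chr1:171018920-171029761, chr1:171051174-171064935 and chr1:171229572-171234365. Fcgr4 is on the plus strand and the others on the minus strand. The ratios of these 4 neighbours lay on both sides of 0, with log2 values of 0.18 for Fcgr2b, -0.30 for Fcgr4, -0.20 for Fcgr3 and -0.19 for Fcer1g. An antisense gene, Gm38204, overlaps Fcgr2b and is listed at 0 in both groups.

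**Figure D4:**
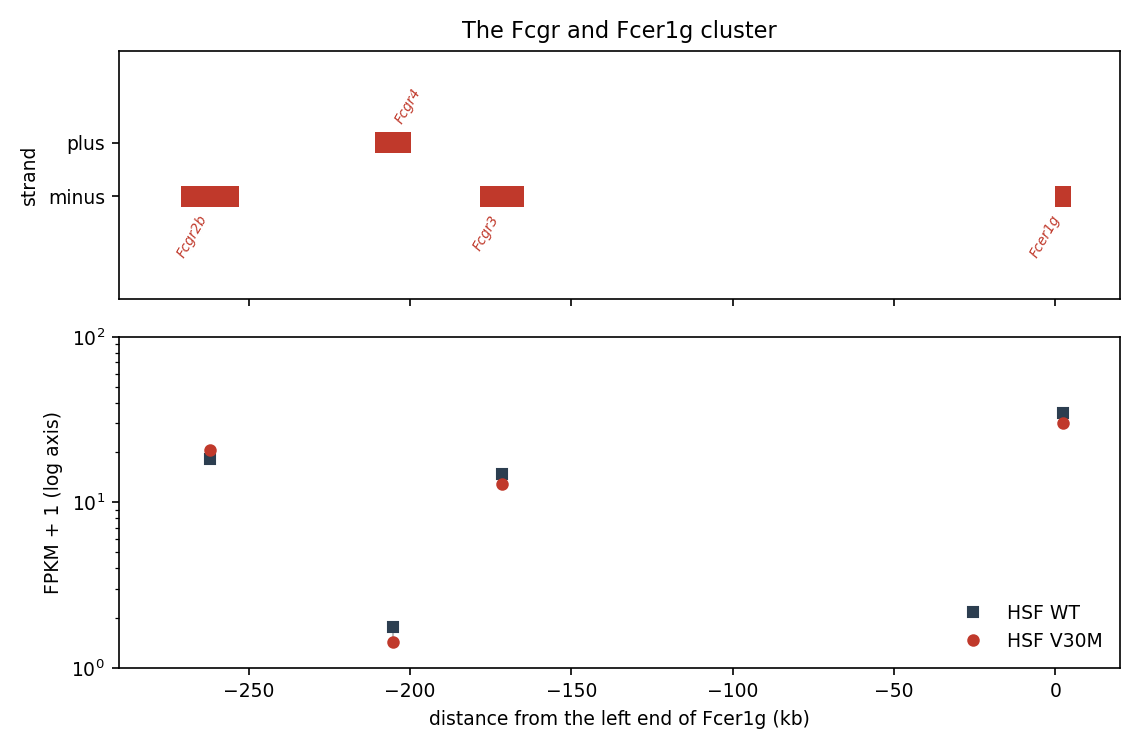
Top, the 4 members of the receptor cluster by strand, with distance from the left end of Fcer1g in kb on the horizontal axis; other genes of the region are not drawn. Bottom, FPKM + 1 on a log axis at the midpoint of each gene, with squares for the group labelled HSF WT and circles for the group labelled HSF V30M. The symbols of each gene lie close together, and Fcgr4 lies far below the others.

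The ITAM adaptors were the most abundant members and differed little between the groups. Fcer1g, the common gamma chain, had an FPKM of 29.1 in nerves labelled HSF V30M and 33.4 in those labelled HSF WT, or 102 to 359 fragments against 83 to 335. Its log2 ratio was -0.19, with an interval of the FPKM ratio from 0.645 to 1.18. Tyrobp, at chr7:30413760-30417585 on the plus strand, stood for 414 to 532 fragments in nerves labelled HSF V30M and 334 to 490 in those labelled HSF WT. Its log2 ratio was -0.18, with an interval from 0.763 to 1.02. Both intervals include 1.

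The adaptors kept close proportions to each other, and Fcer1g kept them to the summed activating Fc gamma receptors, while Trem2, a partner of Tyrobp, did not. Tyrobp was 1.80 times Fcer1g in nerves labelled HSF V30M and 1.78 times in those labelled HSF WT. Fcer1g was 1.97 and 2.02 times the summed activating receptors. Set against Csf1r, the receptor for the macrophage growth factor, Fcer1g was at 0.934 and 0.928 and Tyrobp at 1.68 and 1.65. Csf1r itself had an FPKM of 31.2 and 36.0, with a log2 ratio of -0.20. It is 1 of 17 macrophage markers, whose log2 ratios ran from -1.23 to 0.35 with a median of -0.41. Proportions to another marker would therefore differ.

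Syk, the kinase that docks on the phosphorylated ITAM, lies at chr13:52583173-52648792 on the plus strand and had a lower ratio than either adaptor. It had an FPKM of 7.57 in nerves labelled HSF V30M, or 300 to 997 fragments, and 11.8 in those labelled HSF WT, or 333 to 1265. The HSF WT level was 1.56 times the HSF V30M level, and on the FPKM + 1 scale the log2 ratio of -0.58 fell just short of a fold of 1.5. The interval of the FPKM ratio ran from 0.547 to 0.753 with the fewest fragments and from 0.590 to 0.698 with the most, so the difference was larger than counting error on either reading. The wider interval lay below that of Tyrobp and overlapped that of Fcer1g. Relative to Csf1r, Syk was at 0.243 and 0.328. This direction depends on the marker. Relative to the 4 of 17 macrophage markers past the fold towards lower, Syk would be higher in nerves labelled HSF V30M. Relative to the rest it would be lower. Whether the difference exceeds the variation between mice is not known.

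Spi1, whose gene spans chr2:91082390-91115756 on the plus strand, was the member with the lowest ratio among those with a mean of at least 1. Its FPKM was 6.28 in nerves labelled HSF V30M, or 27 to 294 fragments, and 10.4 in those labelled HSF WT, or 33 to 398. The log2 ratio was -0.65, and the HSF WT level was 1.66 times the HSF V30M level. The interval ran from 0.516 to 0.702 with the most fragments and from 0.347 to 1.04 with the fewest, because the shortest of its 4 annotated transcripts has only 402 bases. Spi1 stood at 0.201 of Csf1r in nerves labelled HSF V30M and 0.290 in those labelled HSF WT, a direction that depends on the marker as for Syk. The difference in Spi1 was therefore larger than counting error with the most fragments, whereas with the fewest the interval just included 1.

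The letters GAGGAA, the core to which PU.1 and its ETS family relatives bind, were looked for on both strands in the RefSeq promoters of the GRCm38.p6 build, from 250 bases before to 50 after each start. They occurred in 28.3% of 32851 promoters. RefSeq promoters were at hand for 6 of the members, 8 promoters in all, and 5 of these held the letters. They are shown with the motif in capitals, which reads TTCCTC where it lies on the opposite strand.
Fcgr4: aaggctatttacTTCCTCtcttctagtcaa
Fcgr3: gagtccatttccTTCCTCtttttgtag
Fcgr1: atggcaacttccTTCCTCttttctaatctt
Syk: tgctgacactttGAGGAAaag
These stretches lie at chr1:171018892-171018921 (plus strand, 22 bases before the start), chr1:171059395-171059421 (minus strand, 15 bases before), chr3:96294007-96294036 (minus strand, 55 bases before) and chr13:52596861-52596881 (plus strand, 9 bases before). The fifth promoter is another start of Fcgr3 that holds the same match, 6 bases before the start. The promoters of Fcgr2b, of Fcer1g and of the other Syk start do not contain these letters in this window. The match is a description of sequence. Of the genes with a match, Syk had a log2 ratio of -0.58 and Fcgr1 one of 0.25, on either side of 0.

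Transcripts of antibody genes in the nerve differed far more than those of the receptors. They do not measure antibody protein, which is what Fc receptors bind. All 9 antibody chain genes of the list were past the fold of 1.5 towards lower in nerves labelled HSF V30M, with a median log2 ratio of -3.44 and a range from -5.34 to -1.37. Their summed FPKM was 134 in nerves labelled HSF V30M and 2057 in those labelled HSF WT. Of the class G heavy chains, Ighg3 had 1.99 and 120, Ighg2b 14.6 and 86.4, Ighg1 4.61 and 26.0, and Ighg2c 15.8 and 42.4. The heavy chains of class M and class A, Ighm and Igha, had 19.9 and 378 and 5.81 and 72.7, the kappa light chain Igkc 68.8 and 1282, and the joining chain Jchain 2.40 and 46.9. Ighe, the chain of class E, had 0.08 and 2.16. These genes are close relatives, so the split of reads among the class G chains is uncertain. Reads were aligned to a reference genome of another mouse strain, and its effect on these values was not tested. The B cell markers were lower alongside, and all 6 whose mean reached 1 were past the fold, among them Cd79a, Cd79b, Pax5, Blnk and Cd22, with summed levels over all 11 markers of 7.49 and 40.0.

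Of 14 other Fc receptors and receptor-like genes, 3 had a mean FPKM of at least 1, and these differed little. Fcgrt, which carries class G antibodies across cells and protects them from breakdown, had an FPKM of 86.5 and 89.8 with a log2 ratio of -0.05, and Trim21, which binds antibody inside cells, had 10.3 and 10.9. Fcrls, a receptor-like gene that is also in the macrophage list, had 8.56 and 6.51. None of these 3 was past the fold, with a median of -0.05. Of the other 11, 8 were lower in nerves labelled HSF V30M, 2 were higher and 1 was listed at 0 in both groups. Among them were Fcrl1 at 0.36 and 1.52, Fcrla at 0.45 and 1.32, Fcer2a, the low affinity receptor for class E antibodies, at 0.45 and 0.957, Fcmr, the receptor for class M antibodies, at 0.06 and 0.647, and Fcrl5, listed at 0 against 0.497. These were named after their values were seen, and most are genes of B cells. With the fewest fragments the intervals of Fcrla (0.0324 to 2.08) and Fcer2a (0.140 to 1.43) include 1. The remaining chains of the class E receptor, Ms4a2 and Fcer1a, which pair with Fcer1g on mast cells, had 0.66 and 0.860 and 0.85 and 0.551. Markers of mast cells, which share Fcer1g, were lower, with 3 of 7 past the fold (Tpsb2, Mcpt4 and Cma1) and a median of -0.53. Their summed level was 142 and 221, and their part in the Fcer1g value was not tested.

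The list of other ITAM chains also holds Clec7a and Clec9a, whose motif has a single tyrosine and not the pair. Of this list, 3 of 6 with a mean of at least 1 were past the fold, all lower and all of lymphocyte receptors. Cd79a and Cd79b of the B cell receptor had 0.65 and 7.09 and 0.53 and 7.16. Cd3e of the T cell receptor had 0.32 and 2.29. Its interval ran from 0.00304 to 1.15 with the fewest fragments, which includes 1, and from 0.0811 to 0.229 with the most. The ratios of these 3 chains, from -2.42 to -1.32 on the log2 scale, were far below those of Fcer1g and Tyrobp. The remaining chains with that mean were within the fold. Cd247, also of the T cell receptor, had 1.91 and 2.01, Clec7a 4.02 and 5.13, and Clec9a 1.44 and 1.09.

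Of the receptors that signal through Fcer1g or Tyrobp, 27 of 29 listed are in the table and 10 had a mean of at least 1. Their median was -0.32 (-0.10 with a minimum mean of 5 and -0.03 with none), and 3 were past the fold, all lower. Trem2, which senses lipids and signals through Tyrobp, had an FPKM of 8.95 in nerves labelled HSF V30M and 18.5 in those labelled HSF WT, with a log2 ratio of -0.97. Its interval ran from 0.346 to 0.675 with the fewest fragments, below that of Tyrobp. By FPKM, Tyrobp was 5.86 times Trem2 in nerves labelled HSF V30M and 3.22 times in those labelled HSF WT, and no interval was computed for these quotients. Clec4d and Clec4n, lectin receptors that pair with Fcer1g, had 0.40 and 1.84 and 0.65 and 1.599. With the fewest fragments the interval of Clec4n, from 0.034 to 3.55, includes 1.

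The Src and Tec family kinases, which act before and beside Syk, had a median of 0.08 over 11 genes. Lyn, a Src kinase of myeloid cells and B cells, was level at 5.24 and 5.23. Lck, the Src kinase of T cells, was the 1 gene past the fold and was lower, at 0.67 and 3.63. The log2 ratio of Syk was thus below that of Lyn, at 0.00. The interval of Lyn with the fewest fragments, from 0.653 to 1.55, overlapped that of Syk. With the most fragments it ran from 0.869 to 1.16 and did not overlap.

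Of 33 effectors that act after Syk, 4 were past the fold towards lower, and the list had a median of -0.15. These were the adaptors Lat2, at 9.75 and 15.6, Blnk, at 2.55 and 5.48, and Lat, at 0.53 and 1.83, and the small GTPase Rac2, at 3.12 and 5.89. Lat and Blnk are lymphocyte adaptors, and Rac2 is also abundant in neutrophils. With the fewest fragments the intervals of Lat, from 0.0275 to 1.76, and of Rac2, from 0.0776 to 3.13, include 1. With the most fragments both lie below 1.

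On the inhibitory side, 28 ITIM receptors and phosphatases had a median of -0.15, with 5 lower and 2 higher past the fold. Inpp5d, the phosphatase recruited by Fcgr2b, had 23.2 and 24.2, a log2 ratio of -0.06. Ptpn6, the tyrosine phosphatase of other ITIM receptors, had 6.36 and 9.85, a log2 ratio of -0.56. The lower genes were Ptprc, the phosphatase CD45 of all white blood cells, at 5.79 and 12.4, the B cell lectin Cd22, at 1.26 and 8.49, and Cd72, at 5.17 and 8.38, together with Cd300a, at 1.45 and 3.02, and the adaptor Dok3, at 1.65 and 2.997. The higher ones were the lipid phosphatase Inppl1, at 42.7 and 26.5, and the adaptor Dok2, at 8.05 and 4.68. With the fewest fragments the intervals of Cd72 (0.332 to 1.14), Cd300a (0.170 to 1.28), Dok2 (0.413 to 10.1) and Ptpn6 (0.179 to 2.24) include 1. The ratios of Fcgr2b and of its own phosphatase were both within the quartiles of all genes.

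Of 18 relatives and partners of Spi1, Irf8 alone was past the fold. Irf8, with which PU.1 binds DNA in macrophages and dendritic cells, had 7.25 in nerves labelled HSF V30M and 14.7 in those labelled HSF WT, a log2 ratio of -0.92 with an interval from 0.328 to 0.740. Over the list, 9 genes were below 0 and 9 above, with a median of 0.02. Of 19 genes known as targets of PU.1, 18 had a mean of at least 1, of which 14 were below 0 and 4 above, with a median of -0.31. The 4 past the fold were all lower, namely Cd68, a lysosomal protein of macrophages, at 15.5 and 30.9, the protease Ctss, at 44.4 and 68.2, Ptprc, and Csf3r, the receptor for the neutrophil growth factor, at 2.63 and 6.05.

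**Figure D5:**
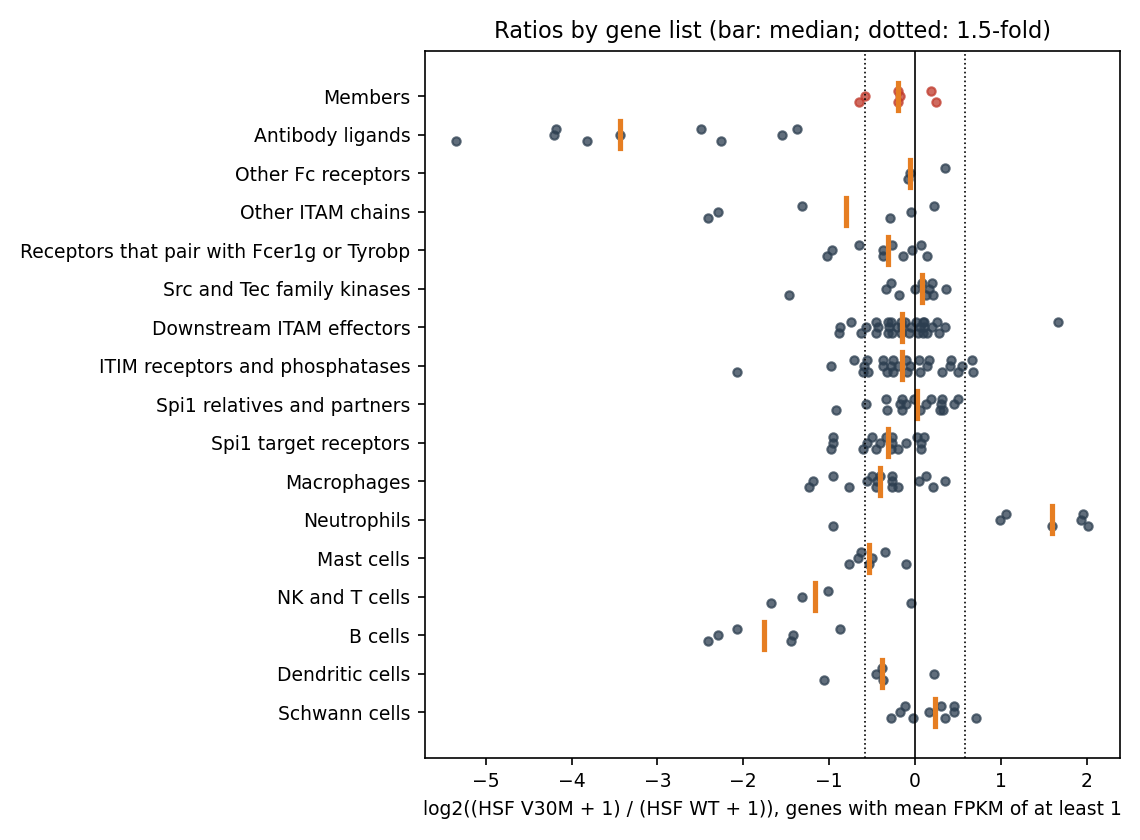
Log2 ratio of FPKM + 1, HSF V30M over HSF WT (horizontal axis), for genes whose mean FPKM reached 1 in the members (red) and in each of 16 lists (rows). Each point is a gene, orange bars are medians, and dotted lines mark a fold of 1.5. The antibody list lies furthest to the left with a median of -3.44, the neutrophil list furthest to the right with 1.597, and the members lie near 0.

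Markers of the cells that carry these genes differed as well. Of 17 macrophage markers, 13 were below 0 and 4 above, with a median of -0.41, and 4 were past the fold towards lower, C1qb at 58.7 and 139, C1qc at 44.1 and 102, Aif1 at 5.43 and 9.98, and Cd68. The summed level of this list was 522 in nerves labelled HSF V30M and 791 in those labelled HSF WT. Neutrophils, which also carry Fcgr3, Fcgr4, Fcer1g and Syk, went the other way in 6 of 7 markers with a mean of at least 1, with a median of 1.597 and summed levels of 116 and 35.04. S100a9 and S100a8, calcium-binding proteins of neutrophil granules and cytosol, had 59.0 and 13.8 and 12.6 and 3.48, Ngp 14.4 and 2.96, Camp 8.5 and 1.496, Lcn2 8.20 and 3.42, and Ltf 6.88 and 2.98, whereas Csf3r was lower. Of 4 T and natural killer cell markers with a mean of at least 1, 3 were past the fold towards lower, Cd3e, Trac at 1.2 and 3.43, and Cd4 at 0.52 and 3.88. Of 5 dendritic cell markers, Itgax, the integrin CD11c, was lower at 1.35 and 3.88. With the fewest fragments the intervals of Itgax (0.0783 to 1.25), Trac (0.0952 to 1.09) and Ltf (0.440 to 22.8) include 1. Of 10 Schwann cell markers, S100b was past the fold towards higher, at 328 and 200.98, with a median of 0.23. The part of each cell type in the values of Syk, Spi1 and the receptors was not tested, and the lists overlap in genes.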

How the data were processed

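Sciatic nerve RNA was sequenced by the authors with Ion Torrent libraries. The submitters' processing notes name STAR, Cufflinks, Cuffdiff and the GRCm38 build, with versions not given in the sources used here. The authors deposited 1 Cuffdiff table with an FPKM per gene and group, the libraries of a group being combined. Its fold changes, p-values and q-values were not used. Values carry decimal commas, which were replaced by points. Depth was read from the low FPKM values, since read totals are not in the table: taking 200 bases from the transcript length, 1 fragment was worth 0.0481 and 0.0648 in HSF WT, where 97.7% of 1371 values were whole within 1%, and 0.0392 and 0.0462 in HSF V30M, where 97.6% of 206 were whole within 5%. Values in HSF V30M are rounded to 2 decimals. Intervals are exact binomial (Clopper-Pearson) and cover counting error only.

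Ratios used a pseudocount of 1 and a minimum mean FPKM of 1, with 1.5 as the fold. After 23 genes with too many alignments were left out, 50570 genes were used. Members and the 16 lists (230 of 234 genes are in the table) were chosen with earlier results of these data known. Named were the 8 members, the list genes past the fold (for a list without any, its 2 most abundant), and 10 genes of the members' own complexes. Some list genes that were not past the fold are named as well. The design had foreseen tests on values per mouse, which the table does not allow. An ITAM was a tyrosine, 2 residues and a leucine or isoleucine, repeated after 6 to 8 residues, sought in the principal transcripts of GENCODE (release M21). Python 3.11.15, pandas 2.3.3, scipy 1.17.1 and Biopython 1.88 were used, and the scripts were tested on simulated data. Some genes that the naming rule covers are not reported here. Alternatives were other pseudocounts, minimum means, folds and scaling.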

Additional observations from a re-analysis of the deposited data

How the results depend on the processing

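No paired analysis was possible because each group has a single combined estimate, and for that reason no replicate could be left out either. Of the members, 1 was past the fold towards lower as reported, 2 with a pseudocount of 0.1 or none, and 0 with a fold over 2. Over all genes, 1319 were lower and 1284 higher, against 646 and 732 with a minimum mean of 5 and 616 and 621 with a fold over 2, which are stricter by construction. All 24 recomputed member ratios kept their direction. This is no check, since a pseudocount cannot change the sign of a ratio and the scaling factors were near 1. Each ratio shifted by less than the arm of its counting interval from the fewest fragments. That tolerance is wide for Fcgr4, whose log2 ratio went from -0.30 to -0.70 with a pseudocount of 0.1 and -0.83 with none. Of 77 recomputed list medians 75 kept their sign, but lists of low genes shifted in size. Without a pseudocount and without a minimum mean, the medians were -2.18 and -0.18 for NK and T cells (-1.16 in the figure of gene lists), -2.72 and -0.89 for B cells (-1.76) and -1.59 and -0.11 for other ITAM chains (-0.80). The neutrophil median was 1.02 without a minimum mean, and the effector median -0.05 with a minimum mean of 5. The Src and Tec kinase median went to -0.06 without a minimum mean and that of the Spi1 relatives to -0.01 with a minimum mean of 5, changing sign near 0, and the antibody median moved to -4.22 without a pseudocount. Scaling by median of ratios used factors near 1 (1.001 for HSF V30M, 0.999 for HSF WT).

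The fragment number depends on the transcript and on the worth of 1 fragment, which were changed together. From the fewest to the most, the fragments of both groups together were 31 and 232 for Fcgr1, 165 and 683 for Fcgr3, 181 and 2875 for Fcgr2b, 185 and 694 for Fcer1g, 748 and 1022 for Tyrobp, 633 and 2262 for Syk, and 60 and 691 for Spi1. For Fcgr4, which has a single transcript, it went from 22 to 28, and depth limits this gene. Fragments of Ion Torrent libraries without molecular identifiers are not independent molecules.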

Other observations

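Other genes in and around the receptor cluster were looked at after their values were seen. Cfap126, a protein of cilia that lies between Fcgr3 and Fcer1g, had an FPKM of 2.47 in nerves labelled HSF V30M and 0.479 in those labelled HSF WT, a log2 ratio of 1.23. Its neighbour Sdhc, a subunit of mitochondrial complex II, had 76.2 and 59.3. Fcrla, an Fc receptor-like gene of B cells at the other end of the cluster, had 0.45 and 1.32. These genes are named for their position, and their differences have no replicate check.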
